A study of Mus musculus with 17 samples.

Results

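S100a4, S100a6, S100a10, S100a11, Anxa1, Anxa2 and Lgals1 encode 4 small calcium-sensor proteins of the S100 family, a pair of annexins and galectin-1. They were followed in bulk RNA sequencing of haematopoietic stem cells (HSCs) from young and old C57BL/6 Jrj mice. The 7 genes were taken by symbol from the 54838 genes counted in each library, and they were selected on their CPM in the 4 groups (reads scaled to library size). Their levels and group differences are therefore given as a description, without a test of their own. The 17 libraries came from old mice given Mito-Q (n = 5), old control mice (n = 3), young mice given CCCP (n = 5) and young control mice (n = 4). Old mice were over 18 months of age and young mice were 8 to 12 weeks of age. Mito-Q, a ubiquinone coupled to a cation that carries it into mitochondria, was injected on 5 consecutive days at 2 mg/kg. CCCP, an ionophore that collapses the mitochondrial proton gradient, was injected 1 time at 0.3 mg/kg. The labels name no transgene and no mutant allele. The comparisons asked how HSCs changed with age, with a mitochondria-directed antioxidant in old mice and with an uncoupler in young mice. HSCs were taken as Lin- cKit+ Sca1+ CD48- CD150+ cells from marrow first enriched for c-kit. The labels leave unsaid whether control mice got vehicle, when cells were collected after the last injection and whether each library was a separate mouse, so p-values measure the spread between libraries.

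S100 proteins are small proteins that open a hydrophobic face when they bind calcium and then attach to target proteins, many of them at the cell cortex. Annexins bind acidic phospholipids when calcium is present, and S100 proteins dock on the amino-terminal tails of some of them: S100a10 pairs with annexin A2, and S100a11 pairs with annexin A1. S100a10 is the exception in its family, since it has lost the ability to bind calcium. Galectin-1 is a secreted lectin that binds beta-galactoside sugars on surface glycoproteins. In blood, transcripts of these genes are known to be abundant in mature myeloid cells.

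The S100 genes lie on chromosome 3, where most of the mouse family is clustered. In the GRCm38 build, S100a4 (ENSMUSG00000001020) spans chr3:90603771-90606045 and S100a6 (ENSMUSG00000001025) spans chr3:90612882-90624181, both on the plus strand and 6.84 kb apart. S100a11 (ENSMUSG00000027907, chr3:93520488-93526287) and S100a10 (ENSMUSG00000041959, chr3:93555080-93564643), also on the plus strand, are 28.8 kb apart. The other members are dispersed. Anxa1 (ENSMUSG00000024659) occupies chr19:20373428-20390944 on the minus strand, Anxa2 (ENSMUSG00000032231) occupies chr9:69453620-69491795 on the plus strand and Lgals1 (ENSMUSG00000068220) occupies chr15:78926725-78930465 on the plus strand. Exons of S100a4 share 302 bases with the same-strand model Gm42674, which had 0 reads in every library. Exons of Anxa2 share 98 bases with the antisense gene Gm16144, which had at most 32 reads in a library. The strand setting of the counting is not given in the sources used here, so reads of Anxa2 and Gm16144 in those bases cannot be told apart. The processed pseudogenes Lgals1-ps1 and S100a11-ps had at most 2 and 4 reads.

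Promoter sequences are shown for the members that had a promoter entry, S100a4, S100a6, S100a11, Anxa1 and Anxa2. S100a10 and Lgals1 had none. The 250 bases before the start of each gene were read from RefSeq for GRCm38.p6, where 5 of the 7 genes were matched. Each window ends just before RefSeq's start of the gene, which can differ from the annotated start above. The windows were searched on both strands for the AP-1 site (letters TGANTCA), the TATA box (letters TATAAA), the GC box (letters GGGCGG), the E-box (letters CACGTG) and the CArG box of serum response factor. Matches are in capitals, none overlaps another, and the sequences run 5′ to 3′ on the strand of the gene.
S100a4 (chr3:90603520-90603769, plus strand): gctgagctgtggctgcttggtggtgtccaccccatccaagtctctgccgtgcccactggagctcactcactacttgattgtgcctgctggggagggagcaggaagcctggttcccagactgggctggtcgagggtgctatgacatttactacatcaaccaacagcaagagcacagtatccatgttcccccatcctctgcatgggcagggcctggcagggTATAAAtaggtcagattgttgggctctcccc
S100a6 (chr3:90612644-90612893, plus strand): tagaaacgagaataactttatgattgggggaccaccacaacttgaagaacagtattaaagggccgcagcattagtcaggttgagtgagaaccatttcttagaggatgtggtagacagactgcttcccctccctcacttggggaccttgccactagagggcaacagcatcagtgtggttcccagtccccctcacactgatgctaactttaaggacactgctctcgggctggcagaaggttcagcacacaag
S100a11 (chr3:93520246-93520495, plus strand): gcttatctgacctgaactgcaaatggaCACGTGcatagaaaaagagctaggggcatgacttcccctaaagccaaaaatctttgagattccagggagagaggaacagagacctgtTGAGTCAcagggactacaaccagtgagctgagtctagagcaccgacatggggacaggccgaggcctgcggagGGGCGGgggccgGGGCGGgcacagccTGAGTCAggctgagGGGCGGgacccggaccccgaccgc
Anxa1 (chr19:20390672-20390921, minus strand): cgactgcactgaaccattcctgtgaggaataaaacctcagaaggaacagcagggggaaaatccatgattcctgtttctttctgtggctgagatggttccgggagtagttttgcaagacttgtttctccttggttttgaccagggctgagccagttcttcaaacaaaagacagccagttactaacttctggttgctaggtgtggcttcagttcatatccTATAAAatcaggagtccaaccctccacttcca
Anxa2 (chr9:69453433-69453682, plus strand): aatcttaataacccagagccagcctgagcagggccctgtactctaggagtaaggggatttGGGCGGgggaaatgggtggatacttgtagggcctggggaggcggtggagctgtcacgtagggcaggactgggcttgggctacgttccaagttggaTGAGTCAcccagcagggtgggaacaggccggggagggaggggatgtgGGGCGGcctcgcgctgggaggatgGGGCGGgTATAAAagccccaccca
The S100a4 window had 57.2% G and C and a TATA box that begins at position -31, counted back from the gene's start. The S100a6 window held none of the searched motifs and had 50% G and C. The S100a11 window, with 60% G and C, held AP-1 matches that begin at positions -136 and -38, 3 GC boxes and 1 E-box. The Anxa1 window had 46% G and C and a TATA box that begins at -32. The Anxa2 window had 62.4% G and C, an AP-1 match that begins at -95, 3 GC boxes and a TATA box that begins at -17. Among 32851 promoter windows of the same length, 6.75% held the AP-1 site, 12.4% the TATA box, 32.7% the GC box, 6.02% the E-box and 1.47% the CArG box. Of the 5 windows of these genes, 2 held the AP-1 site, 3 the TATA box, 2 the GC box, 1 the E-box and 0 the CArG box. A match is a stretch of letters and no evidence that a factor binds there.

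Reads assigned to genes ran from 5649611 to 8120443 per library. Between 37.7% and 76.2% of the reads listed in a library were entered as in no gene, in several genes, at several places or not aligned. The highest share was in young CCCP 3, and old control 1 had 68.8%. A count of 3 reads, taken as the floor, was worth 0.298 to 0.653 CPM, here with TMM factors in the scaling. Without molecular identifiers, amplified reads are not independent molecules, so this floor takes in counting error and nothing else. Young CCCP 3 stood apart, with a median Spearman correlation to the other libraries of 0.682 over the genes tested, and the next lowest were old control 1 at 0.799 and young control 3 at 0.803. The defining markers of HSCs (Slamf1, Kit and Ly6a of the gate, and Procr, Mecom and Hlf) were present in every group, with summed levels of 1930 to 2280 CPM in old Mito-Q, 1750 to 2040 CPM in old control, 1180 to 2790 CPM in young CCCP and 1990 to 2480 CPM in young control libraries. The lowest sum, 1180 CPM, was in young CCCP 3. Behind similar sums, single markers differed between the control groups in both directions. Kit, Hlf and Mecom averaged 553, 277 and 142 CPM in old control, against 1130, 476 and 238 CPM in young control libraries. Slamf1, Ly6a and Procr averaged 96.7, 596 and 274 CPM in old control, against 51.9, 250 and 102 CPM in young control libraries. Cd48, which the gate selects against, was at 0 to 17.5 CPM in old Mito-Q, 0 to 0.714 CPM in old control, 0 to 19.2 CPM in young CCCP and 0 to 4.64 CPM in young control libraries.

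Divided by exon length, the 7 genes covered a wide range of levels. The length is that of the exons of all annotated transcripts merged, which can exceed that of the transcript expressed. S100a11 had the highest median over the 17 libraries, 325 CPM per kb (range 153 to 1150), followed by S100a10 at 147 (50.2 to 485) and Anxa1 at 95 CPM per kb (46.3 to 201). S100a6 had a median of 62.1 CPM per kb (18.9 to 187), Lgals1 of 31.1 (18.2 to 174) and Anxa2 of 14.4 CPM per kb (7.41 to 29.3). S100a4 was at 2.25 CPM per kb (1.02 to 12.6), with 4 to 45 reads per library. The ranges of neighbours in this order overlap throughout, and the order of the group means below S100a11 differed between groups. In old control libraries S100a6 averaged 144 ± 49.2 and Anxa1 83.6 ± 32.9 CPM per kb (SD, n = 3). In young CCCP libraries Anxa1 averaged 123 ± 46.9 and S100a10 80.9 ± 23.6 CPM per kb (SD, n = 5). In young control libraries Lgals1 averaged 68.2 ± 70.9 and S100a6 32.5 ± 20.2 CPM per kb (SD, n = 4).

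**Figure D1:**
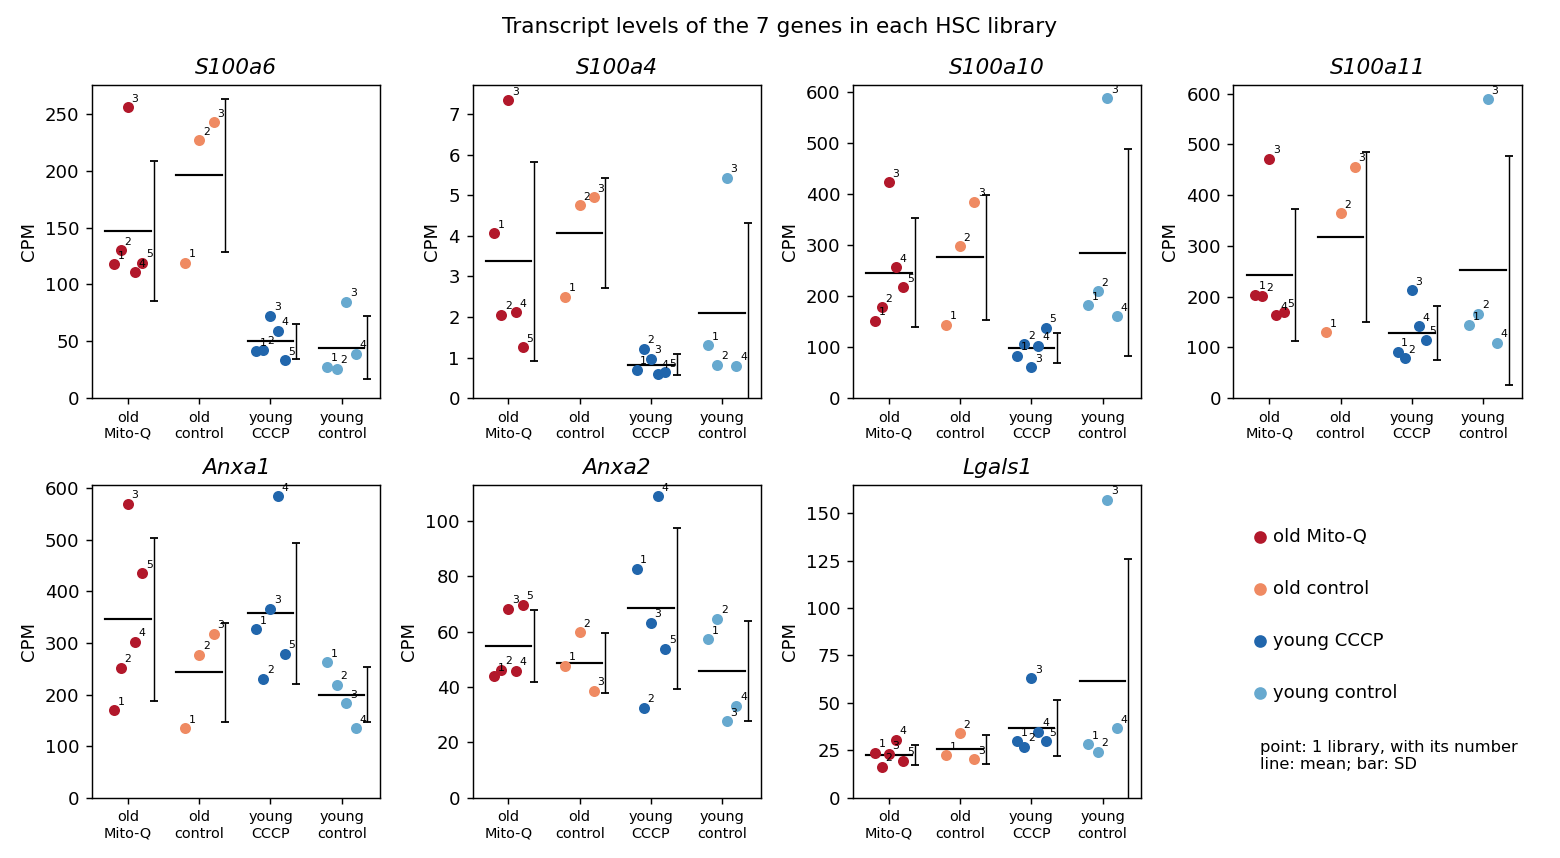
Level of each of the 7 genes in CPM (vertical axis, linear from 0) in every library, by group, with the library's number beside its point. Horizontal lines are means and bars beside them are SDs, cut at 0 where they reach below it. S100a6 is higher in all 8 libraries of old mice than in the 9 of young mice, and young control 3 stands above the rest of its group for S100a4, S100a6, S100a10, S100a11 and Lgals1.

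S100a6, also called calcyclin, binds the calcyclin-binding protein Cacybp and was the member that separated the ages. In old control libraries 1 to 3 S100a6 was at 119, 227 and 243 CPM, against 27.7, 25.8, 84.9 and 39.1 CPM in young control libraries 1 to 4. All old control libraries lay above all young control libraries, the nearest pair being old control 1 and young control 3. The means were 196 ± 67.3 CPM in old control and 44.4 ± 27.6 CPM in young control libraries (SD, n = 3 and 4), a fitted log2 fold change of 2.15 (SE 0.42). In bulk RNA a larger share of cells that express a gene and more of its RNA per cell cannot be told apart. Leaving out any 1 library kept this log2 fold change between 1.96 and 2.67. Old Mito-Q libraries 1 to 5 had 118, 130, 256, 111 and 119 CPM of S100a6, a mean of 147 ± 61.4 CPM (SD, n = 5). Apart from old Mito-Q 3, they lay near old control 1 and below old control 2 and 3, and the ranges of both old groups overlapped (log2 fold change -0.42, SE 0.39, 95% interval -1.18 to 0.34). In young CCCP libraries 1 to 5 S100a6 was at 41.0, 42.6, 72.5, 59.3 and 33.4 CPM, all within the range of young control libraries (mean 49.8 ± 15.8 CPM, SD, n = 5, log2 fold change 0.17, SE 0.37).

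S100a4, which binds non-muscle myosin and is known as a metastasis-associated protein, lies 6.84 kb from S100a6 but was near the floor. In old Mito-Q libraries it was at 4.07, 2.06, 7.35, 2.12 and 1.25 CPM, and in old control libraries at 2.50, 4.76 and 4.95 CPM. Young CCCP libraries had 0.695, 1.22, 0.972, 0.595 and 0.640 CPM of S100a4, against 1.31, 0.819, 5.44 and 0.793 CPM in young control libraries. Young control 3 was higher than all 3 old control libraries, while the remaining young libraries were all at or below 1.31 CPM. The log2 fold change of old control over young control was 0.96 with an SE of 1.27, and it was 2.05 without young control 3. For CCCP over young control it was -1.32 (SE 1.13), and -0.26 without that library. Young CCCP libraries held 4 to 9 reads of S100a4, and a difference between the young groups was not detectable with these counts. The part that the 302 exon bases shared with Gm42674 have in the low counts was not tested.

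S100a10, the annexin A2 partner that helps hold plasminogen at the cell surface, was the member whose young groups did not overlap. In young CCCP libraries S100a10 was at 82.7, 106, 60.9, 103 and 138 CPM, against 182, 210, 588 and 161 CPM in young control libraries. All CCCP libraries lay below the lowest control library. The means were 98.1 ± 28.6 CPM in young CCCP and 285 ± 203 CPM in young control libraries (SD, n = 5 and 4), with a log2 fold change of -1.54 (SE 0.38). Young control 3 carried much of that mean: without it the log2 fold change was -0.92. With young CCCP 3 left out as well, the means were 107 ± 22.7 CPM in young CCCP and 184 ± 24.7 CPM in young control libraries (SD, n = 4 and 3), still without overlap, and the log2 fold change was -0.77. Old Mito-Q libraries had 152, 178, 423, 257 and 218 CPM of S100a10 and old control libraries had 144, 298 and 385 CPM. The old groups overlapped each other and the young control libraries. Their log2 fold changes were -0.17 (SE 0.41) for Mito-Q over old control and -0.05 (SE 0.43) for old control over young control, with 95% intervals of -0.97 to 0.64 and -0.9 to 0.8.

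S100a11, the annexin A1 partner, was at 204, 201, 472, 163 and 169 CPM in old Mito-Q libraries and at 130, 364 and 456 CPM in old control libraries. In young CCCP libraries it was at 91.7, 78.0, 212, 142 and 115 CPM, against 143, 166, 589 and 109 CPM in young control libraries. Each group except old control held 1 high library, which was the one numbered 3, and all compared groups overlapped. The log2 fold change of old control over young control was 0.33 (SE 0.51) and it was 1.2 without young control 3. Young CCCP over young control gave -0.98 (SE 0.45), and -0.16 without young control 3. For Mito-Q over old control it was -0.39 (SE 0.48).

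Anxa1, the annexin that acts on formyl peptide receptors and limits the recruitment of leukocytes, had no high library in young control. In old Mito-Q libraries Anxa1 was at 170, 252, 570, 302 and 435 CPM, a mean of 346 ± 158 CPM (SD, n = 5), and in old control libraries at 135, 277 and 318 CPM, a mean of 243 ± 95.9 CPM (SD, n = 3). Young CCCP libraries had 327, 231, 366, 584 and 279 CPM, a mean of 357 ± 136 CPM (SD, n = 5), against 263, 219, 183 and 135 CPM and a mean of 200 ± 54.1 CPM (SD, n = 4) in young control libraries. In the young groups 4 of 5 CCCP libraries lay above all control libraries, while CCCP 2 lay inside their range. The log2 fold changes were 0.84 (SE 0.35) for CCCP over young control, 0.51 (SE 0.38) for Mito-Q over old control and 0.28 (SE 0.39) for old control over young control.

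Anxa2, which organises membrane and actin at sites of exocytosis and repair, varied less between groups. Its levels were 43.8, 46.2, 68.3, 45.9 and 69.8 CPM in old Mito-Q libraries and 47.7, 59.8 and 38.6 CPM in old control libraries. Young CCCP libraries had 82.8, 32.5, 63.2, 109 and 53.9 CPM of Anxa2, against 57.2, 64.7, 27.6 and 33.2 CPM in young control libraries. All compared groups overlapped, with the highest and nearly the lowest library both in young CCCP. The log2 fold changes were 0.58 (SE 0.36) for CCCP over young control, 0.17 (SE 0.39) for Mito-Q over old control and 0.09 (SE 0.41) for old control over young control.

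The ratio of S100a10 to Anxa2 reads, a measure of how the transcripts of these binding partners stood to each other within a library, was lowest after CCCP. It was 0.999, 3.26, 0.963, 0.945 and 2.55 in young CCCP libraries, against 3.18, 3.25, 21.3 and 4.85 in young control libraries. Only CCCP 2 reached into the control range, and CCCP 1, 3 and 4 were near 1 read of S100a10 per read of Anxa2. Those 3 libraries were also the richest of their group in neutrophil transcripts, with 12 marker genes summing to 9660, 14000 and 16400 CPM, against 769 and 5040 CPM in CCCP 2 and 5 and 417 to 2210 CPM in young control libraries. The ratio was 3.48, 3.84, 6.19, 5.61 and 3.13 in old Mito-Q libraries and 3.02, 4.99 and 9.98 in old control libraries, which overlapped. The matching ratio of S100a11 to Anxa1 was 0.281, 0.338, 0.581, 0.244 and 0.412 in young CCCP libraries and 0.544, 0.76, 3.22 and 0.811 in young control libraries. There 4 of 5 CCCP libraries lay below all controls, and CCCP 3 lay inside their range. In old Mito-Q libraries that ratio was 1.2, 0.798, 0.829, 0.54 and 0.388, against 0.96, 1.32 and 1.43 in old control libraries, and only Mito-Q 1 reached the range of the controls. The lowest of these ratios, 0.54 and 0.388, were in Mito-Q 4 and 5, where the neutrophil markers summed to 5710 and 14300 CPM, while Mito-Q 3, at 0.829, had 9740 CPM. The part of the neutrophil transcripts in the ratios was not tested. These ratios are of the same levels that were known when the genes were picked, and no test was made of them.

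Lgals1 was at 23.7, 16.4, 23, 30.6 and 19.6 CPM in old Mito-Q libraries and at 22.4, 34.1 and 20.2 CPM in old control libraries. In young CCCP libraries Lgals1 was at 29.8, 27.0, 63.0, 34.8 and 29.9 CPM, against 28.1, 24.3, 157 and 36.8 CPM in young control libraries. Outside young CCCP 3 and young control 3, all libraries of both ages lay between 16.4 and 36.8 CPM. The fitted log2 fold change of old control over young control, -1.27 (SE 0.55), was -0.23 without young control 3. CCCP over young control gave -0.74 (SE 0.46), and 0.27 without that library. With young CCCP 3 and young control 3 both left out the means were 30.4 ± 3.22 CPM in young CCCP and 29.7 ± 6.39 CPM in young control libraries (SD, n = 4 and 3). Mito-Q over old control gave -0.17 (SE 0.51).

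**Figure D2:**
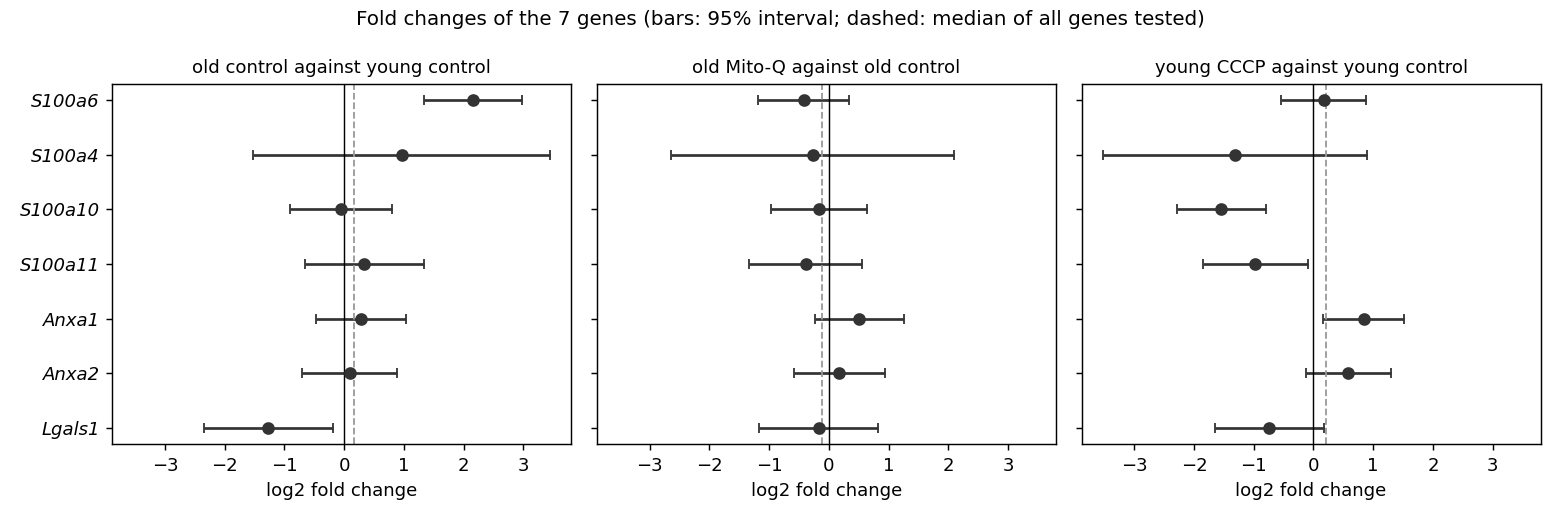
Log2 fold change of each gene (horizontal axis) in the 3 comparisons, with bars for the 95% interval of the fit and a dashed line at the median of all genes tested. S100a6 at 2.15 in old control over young control and S100a10 at -1.54 in young CCCP over young control lie farthest from that line relative to their intervals, and every interval of Mito-Q over old control includes 0.

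Set against all genes, the 7 members did not move as a block. All 7 passed the filter on low counts. A gene was called where its p from edgeR's quasi-likelihood test, adjusted over 24523 genes by Benjamini-Hochberg, was below 0.05. In old control against young control 1 of the 7 was called (S100a6, higher) where 1.69% of all genes were. S100a6 was also the 1 member with old control libraries all above young control libraries, as were 5.04% of all genes. In old Mito-Q against old control 0 of 7 were called, beside 0.542% of all genes, and no member had groups without overlap, beside 6.07% of all genes. There 0 of 7 passed an unadjusted p of 0.05 and DESeq2 called 0. In young CCCP against young control 0 of 7 were called by edgeR, beside 0.718% of all genes, while S100a10 had CCCP libraries all below control libraries, as did 2.89% of all genes. There 3 of 7 passed an unadjusted p of 0.05, DESeq2 called S100a10, and S100a10 passed the threshold in 4 of 11 alternative fits, DESeq2 among them. At an unadjusted p below 0.05, 3487, 2464 and 2735 of all genes passed in the 3 comparisons in that order. The median log2 fold change of the members was 0.28 in old control over young control, -0.17 in Mito-Q over old control and -0.74 in CCCP over young control, against 0.16, -0.12 and 0.21 over all genes. The median of -0.74 was 0.27 without young control 3. Nothing is read from these counts and medians, since the group levels had served to pick the genes. The first comparison shares its old control libraries with the second and its young control libraries with the third.

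Within groups, S100a4, S100a6 and S100a11 were correlated with one another from library to library, and Anxa1 was correlated with Anxa2. These 4 of the 21 pairs of members passed an adjusted p of 0.05 by Pearson's r and 0 by Spearman's rho. The log2 CPM of each gene had its group mean removed before correlation, and p-values came from 100000 permutations within groups, two-sided, adjusted over the 21 pairs. S100a6 and S100a11 had the closest relation, with Pearson's r of 0.886 and Spearman's rho of 0.706 (permutation, adjusted p 0.0433 and 0.118, n = 17). Leaving out the libraries farthest from the median of S100a6, young control 3 and old Mito-Q 3, gave r = 0.767. S100a4 had r = 0.781 with S100a11 and r = 0.76 with S100a6 (adjusted permutation p 0.0433 for both), and 0.512 and 0.442 without those libraries. Anxa1 and Anxa2 had r = 0.65 and rho = 0.623 (adjusted permutation p 0.0433 and 0.118), and r was also 0.65 without old Mito-Q 3 and old Mito-Q 1. No pair that includes S100a10 or Lgals1 passed (adjusted permutation p of 0.0672 or more). For Lgals1 the relations were weaker without young control 3 and young CCCP 3. Its r with S100a6 was 0.708 and with S100a11 0.662, and 0.401 and 0.267 with both libraries left out. The r of Anxa1 with S100a6, S100a10 and S100a11 was 0.423, 0.443 and 0.499. Without young control 3 and young CCCP 3 these were 0.563, 0.609 and 0.671. The library numbered 3 had the highest S100a6 and the highest S100a11 of each of the 4 groups, and the permutations treat a library's number as carrying no information. The binding partners S100a10 and Anxa2 had r = -0.174 (adjusted permutation p 0.699), and S100a11 and Anxa1 had r = 0.499 (adjusted permutation p 0.124).

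**Figure D3:**
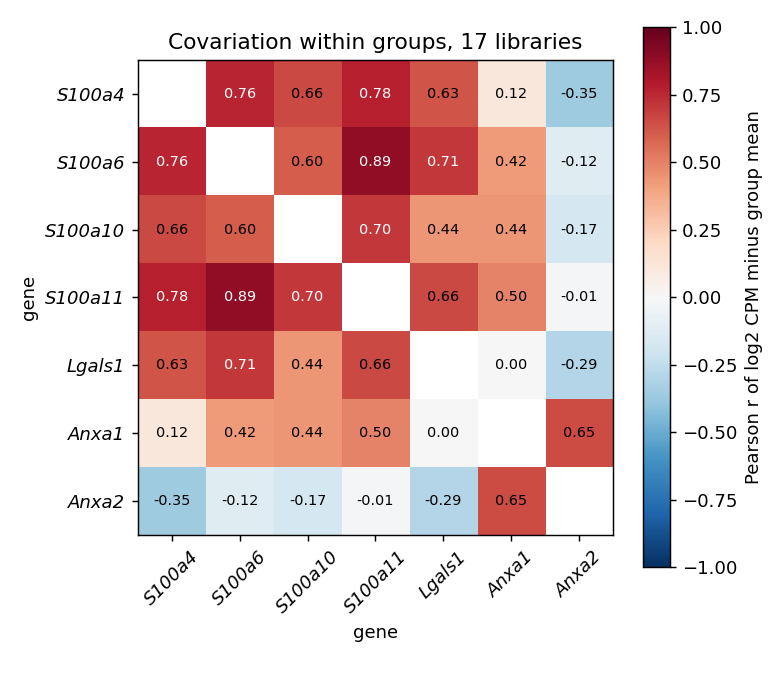
Pearson's r between each pair of the 7 genes over the 17 libraries (rows and columns, colour scale from -1 to 1) after the group mean of log2 CPM was removed. Values in brackets are without young control 3 and young CCCP 3 and are not drawn. Pairs of the 4 S100 genes have r from 0.603 to 0.886 (0.566 to 0.803). Lgals1 has 0.44 to 0.708 with them (0.267 to 0.401), and Anxa1 and Anxa2 have 0.65 (0.681).

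Levels of several members followed properties of the libraries. One was the share of protein-coding reads in 1925 short genes, those with under 1 kb of exon, which was 2.63% to 5.55% in old Mito-Q, 3.54% to 5.32% in old control, 1.66% to 5.3% in young CCCP and 1.95% to 6.08% in young control libraries. It was highest in young control 3, old Mito-Q 3, old control 3 and young CCCP 3, the library numbered 3 of each group. Within groups S100a11 followed it with r = 0.92 and rho = 0.86 (adjusted permutation p 0.0028 and 0.00525 over 14 relations, n = 17) and S100a6 with r = 0.88 and rho = 0.68 (adjusted permutation p 0.00854 and 0.033). Without young control 3 and young CCCP 3, r was 0.87 for S100a11 and 0.79 for S100a6. Lgals1 had r = 0.74 (adjusted permutation p 0.0513), and 0.34 without those 2 libraries. Anxa1 had r = 0.49 and rho = 0.61 (adjusted permutation p 0.0933 and 0.033), and r = 0.74 without those libraries, so that it ran with this share as well as with the neutrophil transcripts described next. S100a4 had r = 0.68 (adjusted permutation p 0.0513) and S100a10 r = 0.56 (adjusted permutation p 0.0933). Exon length here is that of all annotated transcripts of a gene merged. By that length S100a4, S100a11 and Lgals1 are themselves among the short genes. S100a6 is not, with 1367 bases merged from 4 transcripts, and the lengths of its single transcripts were not examined. With this share as a covariate, the log2 fold change of S100a6 in old control over young control was 1.79 and that of S100a10 in CCCP over young control was -1.19.

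The other property was the level of neutrophil transcripts, which did not vary alone. Young CCCP 4 and old Mito-Q 5, the richest of their groups in them, also had the highest erythroid marker sums, 1190 and 746 CPM. Their monocyte or macrophage sums, 2260 and 1850 CPM, were the highest of their groups too. In young control libraries the erythroid sum was not highest in the library richest in neutrophil transcripts. The parts of these lineages were not separated. The neutrophil level is described here. Summed over 12 neutrophil markers, this level was 986 to 14300 CPM in old Mito-Q, 1100 to 2390 CPM in old control, 769 to 16400 CPM in young CCCP and 417 to 2210 CPM in young control libraries. None of the 12 markers was at 0 throughout a group, and S100a8, S100a9 and Ngp had the highest means over all 17 libraries. In the control groups Prtn3 was the highest of the 12, at a mean of 1010 CPM in old control and 216 CPM in young control libraries. The old control sums, with a mean of 1940 CPM, thus hold a large part of Prtn3. Prtn3 ran against the list in old mice: its mean in old Mito-Q, 651 CPM, was below old control, while every other marker's mean was above. In young CCCP its mean was 269 CPM. In CCCP against young control 1 of the 12 was called, higher, in Mito-Q against old control 0 and in old control against young control 1, higher. DESeq2 called 8, 4 and 2 of the 12 in these comparisons, and 11, 5 and 3 passed an unadjusted p of 0.05. Within groups Anxa1 followed the log2 sum with r = 0.73 and rho = 0.80 (adjusted permutation p 0.0157 and 0.00525, n = 17), and Anxa2 with r = 0.71 and rho = 0.67 (adjusted permutation p 0.0196 and 0.025). Without young CCCP 2 and old Mito-Q 2, r was 0.77 for Anxa1 and 0.59 for Anxa2. For S100a11 r was 0.23, and it was smaller in size for the remaining 4 genes. With the neutrophil sum as a covariate, the log2 fold change of CCCP over young control was -0.07 for Anxa1 and -0.26 for Anxa2, against 0.84 and 0.58 without it, while S100a6 in old control over young control was 2.00. Both covariates were chosen after the libraries' values had been seen, and the part of either property in the differences between groups was not tested.

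**Figure D4:**
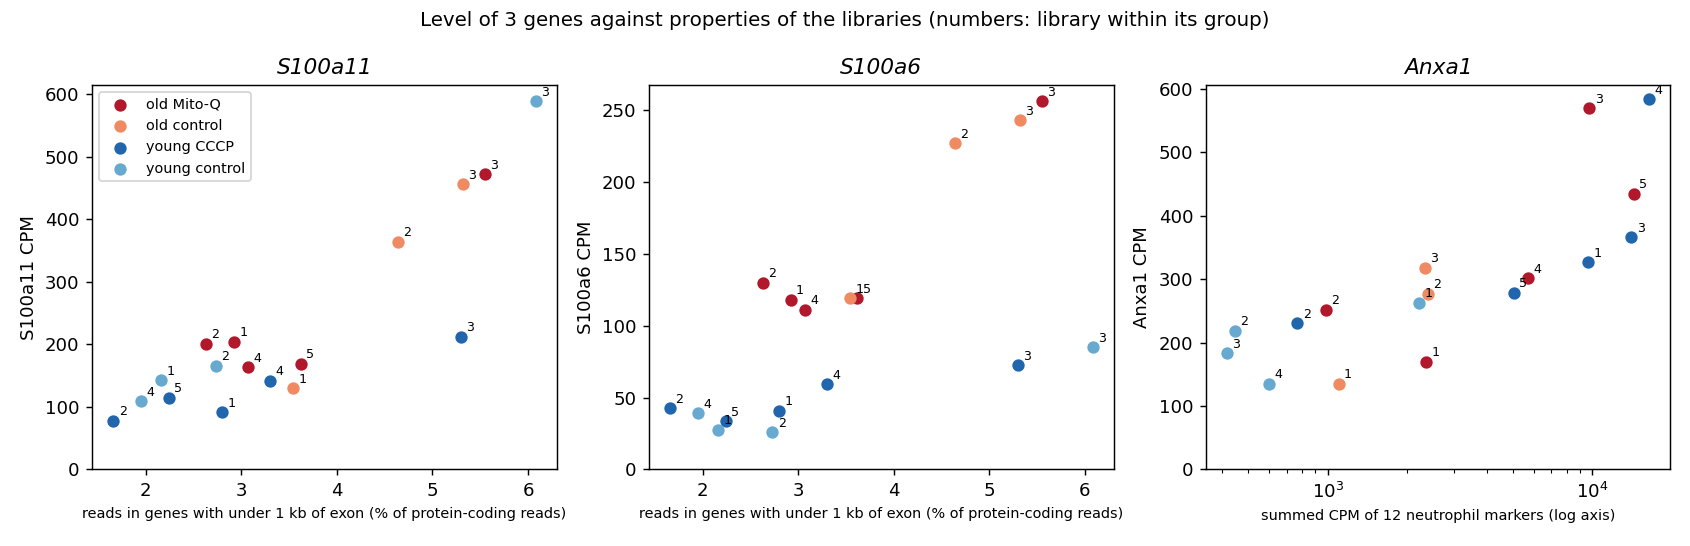
CPM of S100a11 and S100a6 against the percentage of protein-coding reads in genes with under 1 kb of exon, and CPM of Anxa1 against the summed CPM of 12 neutrophil markers on a log axis, 1 point per library with its number and group colour. S100a11 tends to climb with the short-gene share, though young CCCP 3 (212 CPM at 5.3%) lies below old control 3 (456 CPM at 5.32%). S100a6 climbs in separate bands for old and young libraries, and Anxa1 is highest in the libraries richest in neutrophil transcripts.

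Relatives of the 7 genes gave no edgeR call in any of the 3 comparisons. Of 13 other S100 genes 9 were tested and 0 called in each comparison, with median log2 fold changes of 1 in old control over young control, -0.73 in Mito-Q over old control and -0.45 in CCCP over young control. The most abundant were S100a8 and S100a9, the subunits of calprotectin in neutrophils and monocytes. S100a8 averaged 1800 ± 1690 CPM in old Mito-Q, 341 ± 102 CPM in old control, 2530 ± 2020 CPM in young CCCP and 171 ± 210 CPM in young control libraries (SD, n = 5, 3, 5 and 4), and S100a9 averaged 1250 ± 1160, 261 ± 54.7, 1670 ± 1250 and 187 ± 207 CPM in the same groups. Neither passed the test, at edgeR adjusted p from 0.269 to 0.909. All 10 other annexins were tested and 0 called, with medians of -0.01, 0 and -0.02 in the same 3 comparisons. Anxa5, the annexin used to stain dying cells, averaged 497 ± 69.9 CPM in old Mito-Q and 515 ± 132 CPM in old control libraries, 264 ± 98.5 CPM in young CCCP and 360 ± 58.7 CPM in young control libraries. Anxa7 had log2 fold changes between -0.11 and 0.11. Of 9 other galectins 6 were tested and 0 called, with medians of 0.04, 0.34 and 0.26. Lgals9, the most abundant, averaged 502 ± 103 CPM in old Mito-Q and 617 ± 232 CPM in old control, and 392 ± 67.8 CPM in young CCCP and 402 ± 160 CPM in young control libraries. Lgals8 had log2 fold changes of -0.92, 0.57 and -0.74. Of these 3 lists DESeq2 called S100a1 and Anxa6 in old control against young control and S100a8 and S100a9 in CCCP against young control, names given after their values were seen. At an unadjusted p below 0.05 in edgeR, 5 of these genes passed in old control against young control, 1 in Mito-Q against old control and 5 in CCCP against young control.

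Among partners and receptors of these proteins, 15 of 16 genes were tested. Like the other lists here, this one was chosen with earlier results of these data known, so nothing is read from its counts and medians. In old control against young control edgeR called 2, Plaur and Ptprc, both lower, where 1.69% of all genes were called. There DESeq2 called 3, Ahnak being the other. At an unadjusted p below 0.05 in edgeR 7 passed, as did 3487 of 24523 genes. Plaur encodes the urokinase receptor, which works beside S100a10 and annexin A2 in making plasmin at the cell surface. Plaur was at 17.4, 18.3 and 28.1 CPM in old control libraries, against 76.1, 81.2, 96.4 and 134 CPM in young control libraries, and the groups did not overlap (log2 fold change -2.19, SE 0.49, edgeR adjusted p 0.016). The share of all genes lower without overlap in that comparison is not given here. Plaur was at 32.3, 18, 9.92, 20 and 16.2 CPM in young CCCP libraries, again below every young control library, as were 2.89% of all genes (log2 fold change -2.33, SE 0.40, edgeR adjusted p 0.00156). This call held when any 1 library was left out. The age difference lost its call without young control 4 or without any 1 of the 3 old control libraries, at adjusted p up to 0.144. In old Mito-Q libraries Plaur averaged 65 ± 43.4 CPM and in old control libraries 21.3 ± 5.96 CPM, without overlap and without a call (log2 fold change 1.61, SE 0.46, edgeR adjusted p 0.174). There 6.07% of all genes had groups without overlap, in either direction. Ptprc, the CD45 phosphatase and a surface glycoprotein that galectin-1 binds, averaged 199 ± 78.7 CPM in old control and 452 ± 106 CPM in young control libraries (log2 fold change -1.18, SE 0.30, edgeR adjusted p 0.0396). Ptprc was called in 5 of 11 alternative fits and lost its call on leaving out any 1 library but old control 1, at adjusted p up to 0.295. The list's median log2 fold change was -0.72 in old control over young control, 0.73 in Mito-Q over old control and -0.01 in CCCP over young control. In Mito-Q against old control edgeR called 0 of the list, DESeq2 called Plaur and 5 genes passed an unadjusted p of 0.05. In CCCP against young control edgeR and DESeq2 each called Plaur alone, where edgeR called 0.718% of all genes, and 2 passed an unadjusted p of 0.05. Itgb1, the integrin beta-1 chain and one of the most abundant genes in the list, was not called (log2 fold changes of -0.72, 0.61 and 0).

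In the cortical cytoskeleton list all 21 genes were tested. This list too was chosen with earlier results of these data known, and nothing is read from its counts and medians. In old control against young control edgeR called 3, all lower, where 1.69% of all genes were called. There DESeq2 called 7 of the list. At an unadjusted p below 0.05 in edgeR 13 passed, as did 3487 of 24523 genes. Lcp1, which encodes the leukocyte actin-bundling protein L-plastin, was at 373, 307 and 253 CPM in old control libraries, against 954, 739, 563 and 914 CPM in young control libraries (log2 fold change -1.35, SE 0.27, edgeR adjusted p 0.00718). Lmna, which encodes the nuclear lamins A and C, was at 11.7, 4.19 and 0.354 CPM in old control libraries, the last of these below the floor of 3 reads, against 32.5, 21.1, 62.4 and 60.4 CPM in young control libraries (log2 fold change -3.01, SE 0.71, edgeR adjusted p 0.0248). Vim, which encodes the intermediate filament vimentin, was at 143, 144 and 121 CPM in old control libraries, against 304, 278, 370 and 196 CPM in young control libraries (log2 fold change -1.08, SE 0.27, edgeR adjusted p 0.0395). The groups did not overlap for Lcp1, Lmna or Vim. The share of all genes that were lower without overlap in this comparison is not given here. Lcp1 lost its call without old control 2 or old control 3 (adjusted p up to 0.118) and was called in 10 of 11 alternative fits, the exception being the fit of only the 2 groups (adjusted p 0.112). Lmna lost its call without young control 4, old control 2 or old control 3 (adjusted p up to 0.142) and was called in 8 of 11 alternative fits. The exceptions for Lmna were library totals (adjusted p 0.0644), only the 2 groups (0.144) and the replicate block (0.0532). Vim lost its call on leaving out any 1 library but young control 4 and was called in 5 of 11 alternative fits, with adjusted p up to 0.326. The list's medians were -0.53 in old control over young control, 0.05 in Mito-Q over old control and -0.42 in CCCP over young control, with 0 genes called by edgeR in the last 2 comparisons, against 4 and 1 by DESeq2 and 8 and 7 at an unadjusted p below 0.05. The most abundant, Actb and Tmsb4x, were not called. All 12 other calcium sensors were tested and 0 called by edgeR (2, 1 and 0 by DESeq2 in the 3 comparisons, and 4, 1 and 4 at an unadjusted p below 0.05), with medians of 0.43, -0.18 and -0.27.

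The genes whose log2 CPM ran most like each member over the 17 libraries were sought among 11482 protein-coding genes and are given without a test, since all share the same libraries and group differences. Nupr1 (r = 0.96) and Mt1 (r = 0.939) were most like S100a6. Nupr1, a stress-induced chromatin protein, averaged 293 ± 185 CPM in old Mito-Q, 614 ± 424 CPM in old control, 57 ± 11.2 CPM in young CCCP and 42.4 ± 26.5 CPM in young control libraries (SD, n = 5, 3, 5 and 4). Mt1, a metallothionein, averaged 311 ± 146, 349 ± 171, 24 ± 10.7 and 30.1 ± 20.9 CPM in those groups. The genes nearest S100a11 were Cox7b (r = 0.989), Sem1 (r = 0.987) and Atp5j2 (r = 0.982), of which Cox7b and Atp5j2 encode subunits of cytochrome oxidase and ATP synthase. S100a10 ran with B2m (r = 0.94), Fth1 (r = 0.94) and Chrac1 (r = 0.938), and S100a4 with Dbi (r = 0.93), Guca1a (r = 0.925) and Rpl7 (r = 0.911). Lyz2 and Pglyrp1, which encode the antibacterial proteins lysozyme and a peptidoglycan recognition protein of granulocytes, were among the nearest to Anxa1 (r = 0.856 and 0.852) and to Anxa2 (r = 0.803 and 0.783). Hba-a1 was the third for Anxa1 (r = 0.842), and Add2 was nearest to Anxa2 (r = 0.806). Rex1bd was the third for S100a6 (r = 0.912). For Lgals1 the nearest were Tia1 (r = 0.836), Tmsb10 (r = 0.809) and Tgfbr1 (r = 0.79), with lower rank correlations of 0.681, 0.412 and 0.561.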

How the data were processed

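RNA was sequenced from sorted HSCs in 17 libraries of 4 groups. Per the submitters' processing notes, reads were trimmed with Trim Galore and aligned with STAR 2.7 to GRCm38. The files deposited by the authors hold raw read counts by Ensembl gene ID. How reads were counted (program, annotation, strand) and whether duplicates were removed is not given in the sources used here. The 5 footer entries of each file, for reads in no single gene, were kept out of library sizes and tests. GENCODE M21 named 54723 of 54838 gene IDs.

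One edgeR model (edgeR 4.0.16, R 4.3.3) held all libraries, with a mean per group, TMM factors, filterByExpr by group (minimum count 10), robust quasi-likelihood F-tests and Benjamini-Hochberg adjustment. CPM carry TMM factors and log2 CPM a pseudo-count of 2. The fit was also run on simulated counts with planted fold changes. The outcome is not reported here and is not used as support. Alternatives were other scalings, filters of no minimum or 50 counts, DESeq2 1.42.0, fits to 2 groups, a replicate block, left-out libraries and 2 covariates. Libraries of the same group were checked for duplicates and none were found (lowest chi-square per degree of freedom 20.9).

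Members and lists were chosen with earlier results of these data known. Named beside the members are called list genes, the 2 most abundant genes of each list, the 3 genes most like each member and the most abundant markers. The most abundant genes of the calcium sensor list are not reported here. Lists of HSC, monocyte, megakaryocyte, erythroid, B, T or NK, mast and stromal markers gave 0 edgeR calls, apart from 2 of 6 megakaryocyte markers higher in old control than in young control and 1 higher in young CCCP than in young control libraries. DESeq2 also called 5 of 6 HSC markers in old control against young control (Slamf1, Kit, Ly6a, Procr and Hlf). It called 2 mast cell markers in Mito-Q against old control and 2 monocyte markers in CCCP against young control.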

Additional observations from a re-analysis of the deposited data

Results flagged for a closer look

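In 7 of 21 sets of 1 gene in 1 group of 4 or 5 libraries, a single library lay far from the others by Dixon's criterion. Chance alone meets it in about 5% of sets if values are normally distributed. The criterion was applied to CPM on a linear scale, where high values stand out more than on a log scale. The 7 sets are therefore not weighed against that 5%. Young control 3 was that library for 4 genes. There S100a4 was at 5.44 CPM with the next library at 1.31, S100a10 at 588 with the next at 210, S100a11 at 589 with the next at 166 and Lgals1 at 157 with the next at 36.8 CPM. Old Mito-Q 3 was that library for S100a6, at 256 with the next at 130 CPM, and for S100a11, at 472 with the next at 204 CPM. Young CCCP 3 was that library for Lgals1, at 63 with the next at 34.8 CPM. The old control group, with 3 libraries, was not examined in this way. The sets are not independent, since genes of the same library share its preparation.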

How the results depend on the processing

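The log2 fold change of S100a6 in old control over young control, a description since group levels chose the gene, was 1.79 to 2.67 in 11 other fits and 1.96 to 2.67 with any 1 library left out. Of 395 member fold changes under alternatives 12 moved by more than 1 SD, and of 28 group means on library totals 0 did. The SD was that between libraries within groups, of log2 CPM for fold changes and of CPM for means, so it is a wide limit. S100a11 in CCCP over young control went from -0.98 to -0.16 without young control 3 and is not among the 12. Over all genes tested the replicate numbers did not meet the criterion for pairing, since 5 of 22 same-numbered pairs had correlated deviations over 0.1 (-0.11 to 0.292). The libraries numbered 3 still had the highest short-gene share, S100a6 and S100a11 of each group, which the within-group permutations do not take into account. With the replicate block, calls numbered 404 in old control against young control, 130 in Mito-Q and 168 in CCCP, S100a6 was at 2.24, and Lmna lost its call (adjusted p 0.0532).

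Calls over all genes in old control against young control, 415, numbered 1260 with DESeq2, 186 with only 2 groups, 1271 without young control 3 and young CCCP 3, 692 with the short-gene covariate and 244 with the neutrophil covariate. They split into 128 higher and 287 lower, and into 171 and 251 with DESeq2 size factors or 190 and 237 with upper-quartile factors, where the median of all genes was 0.25 and 0.28 in place of 0.16. In Mito-Q against old control, 133 calls numbered 442 with DESeq2 and 341 without young control 3 and young CCCP 3. In CCCP against young control, 176 calls numbered 324 with no filter, 556 with DESeq2, 111 with only 2 groups and 77 with the neutrophil covariate. The members' median in CCCP was 0.04 without young control 3 and young CCCP 3. List genes called in old control against young control, 5, numbered 3 on library totals, 8 with no filter, 9 at minimum count 50, 14 with DESeq2, 1 with only 2 groups, 16 without those 2 libraries, 9 with the short-gene and 3 with the neutrophil covariate. For Mito-Q, 0 became 1 with no filter, 6 with DESeq2, 4 without those 2 libraries and 1 with the short-gene covariate. For CCCP, 1 became 2 with no filter, 4 with DESeq2 and 3 with the short-gene covariate. With any 1 library left out, calls ran from 125 (without old control 2) to 684 (without old control 1) for old control, with 140 without old control 3, 243 without young control 1 and 255 without young control 4. They ran from 79 (without old control 2) to 142 for Mito-Q, with 81 without old control 3, and from 129 to 185 for CCCP. Members' medians ran from 0.04 to 0.63, from -0.54 to -0.03 and from -1.02 to 0.27, and list calls from 0 to 10, 0 to 3 and 1 to 1. Apart from settings that change the genes or libraries in the fit, the cause was not tested. S100a4 had the fewest reads of the members, 4 to 45 per library, and the parts of depth and of its exon bases shared with Gm42674 were not tested.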
